A study of Mus musculus with 12 samples.

Results

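Glycolysis and hypoxia response genes are 37 genes for glucose uptake, the steps from glucose to lactate, the switches that set the flow through those steps, and targets and controllers of hypoxia-inducible factor 1 (HIF-1). They were chosen by gene symbol, with earlier results of these data known. On these arrays 33 of the 37 were measured, out of 22180 named genes on 41345 probe sets. A gene counted as measured where a probe set carried its symbol and no other, and the brightest such probe set stood for it. Aldoa and Ankrd37 were found only on probe sets with several symbols, and Eno1 and Gpi1 on none, so these 4 genes have no value here.

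The cells were MLE12, a mouse distal lung epithelial line that carries the SV40 large T antigen, an oncogene that keeps the cells dividing. There were 4 groups of 3 arrays: cells given lentiviral shRNA against the long noncoding RNA NANCI (NANCI shRNA), cells given a scrambled shRNA beside them (NANCI scrambled), cells given shRNA against the RNA named LL34 (LL34 shRNA), and cells given a scrambled shRNA beside those (LL34 scrambled). All 4 groups thus carried a pLKO.1 shRNA virus made in HEK-293T cells, a human kidney line. Infection began at 60% confluency and lasted 12 hours, and RNA was taken after 65 hours of subculture; the oxygen level of the cultures is not given in the sources used here. NANCI lies beside Nkx2-1, the gene of a transcription factor that specifies lung epithelium. The comparisons ask which RNAs changed in cells given each shRNA, and here how the glycolytic and hypoxia-induced RNAs stood among them.

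Glycolysis splits glucose into pyruvate and gains ATP without oxygen, and lactate dehydrogenase turns pyruvate into lactate so that the pathway can go on. HIF-1 is a pair of proteins, of which the HIF-1 alpha subunit is made all the time but is marked for destruction by prolyl hydroxylases that need oxygen. When oxygen is scarce the subunit persists, binds DNA at short motifs with the core ACGTG or GCGTG, and raises transcription of glucose transporters, most glycolytic enzymes and genes for blood vessel growth, matrix and pH control. Growth signals and oncogenes can raise many of the same genes in the presence of oxygen. In the lung, epithelial cells meet large changes in oxygen around birth, and Nkx2-1 drives the surfactant genes of distal epithelium.

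The 4 promoters printed here belong to the genes on which the comparisons turn: Slc2a1, which had the largest change of these genes in cells given the NANCI shRNA, and Tpi1, Pgk1 and Ldha, which were called in opposite directions with the 2 shRNAs. Each run is the 250 bases just before the most upstream start of the gene in RefSeq (assembly GRCm38.p6), 5′ to 3′ on the strand of the gene, and capitals mark each match to ACGTG or GCGTG, read on both strands. A match is a string of letters and not a measured site of binding. The Slc2a1 run lies at chr4:119108495-119108744 (plus strand), that of Tpi1 at chr6:124814159-124814408 (minus strand), that of Pgk1 at chrX:106186850-106187099 (plus strand) and that of Ldha at chr7:46845554-46845803 (plus strand).
Slc2a1: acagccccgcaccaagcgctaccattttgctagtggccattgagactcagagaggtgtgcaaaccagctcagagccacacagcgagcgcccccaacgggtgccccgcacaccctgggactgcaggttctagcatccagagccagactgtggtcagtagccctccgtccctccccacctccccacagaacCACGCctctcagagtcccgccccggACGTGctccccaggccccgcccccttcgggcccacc
Tpi1: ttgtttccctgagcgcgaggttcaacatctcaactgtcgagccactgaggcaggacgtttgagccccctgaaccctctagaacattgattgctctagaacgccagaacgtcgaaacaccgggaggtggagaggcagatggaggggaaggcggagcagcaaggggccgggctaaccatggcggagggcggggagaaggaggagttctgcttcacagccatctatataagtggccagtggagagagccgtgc
Pgk1: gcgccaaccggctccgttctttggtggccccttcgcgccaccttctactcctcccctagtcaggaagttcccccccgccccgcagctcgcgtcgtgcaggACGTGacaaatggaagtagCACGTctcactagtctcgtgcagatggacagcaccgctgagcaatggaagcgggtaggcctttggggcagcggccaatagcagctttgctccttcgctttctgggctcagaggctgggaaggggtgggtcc
Ldha: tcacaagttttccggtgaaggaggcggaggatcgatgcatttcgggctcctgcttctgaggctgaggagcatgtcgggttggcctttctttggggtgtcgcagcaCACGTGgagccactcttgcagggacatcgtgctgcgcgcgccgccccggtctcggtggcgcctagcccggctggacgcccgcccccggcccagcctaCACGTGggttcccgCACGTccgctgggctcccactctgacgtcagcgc

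The Slc2a1 and Pgk1 runs each held 2 matches. Ldha had 5 matches in 3 stretches, since 2 of the stretches are CACGTG, a palindrome that matches on both strands. Tpi1, which had the most opposed pair of changes, had 0 matches in this window. Of the 35 listed genes in the promoter table, 27 (77.1%) held at least 1 match, against 10442 (38.6%) of all 27025 genes in it. These promoters are also richer in G and C, with a median of 62.8% against 52.0%. Among all genes with 60 to 70% GC, the class that holds the median of the listed genes, the share with a match was 62.8%. Many of the listed promoters lie outside that class, and the share was lower in classes of lower GC and higher above it. A share matched to the GC of each listed promoter was not computed. By call, 12 of 13 genes higher with the NANCI shRNA held a match, as did 2 of 3 lower with it and 11 of 15 not called. With the LL34 shRNA it was 9 of 12 genes lower, 1 of 1 higher and 15 of 18 not called.

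Values are log2 signals, where a difference of 1 is a doubling of signal. Array medians lay between 6.84 and 6.88 in the NANCI set of 6 arrays and between 6.54 and 6.61 in the LL34 set, so the main tests stayed within a set, shRNA against scrambled. The targeted RNA checked the NANCI label: Sfta3-ps, which the gene table also calls Nanci, fell by 2.91 (SE 0.121, limma adjusted p = 1.72e-07), and Nkx2-1 fell by 1.00 (SE 0.0745, adjusted p = 4.95e-06). In cells given the LL34 shRNA the same RNAs fell by 0.68 and 0.27, and the LL34 RNA itself was not analysed here. The mean correlation of an array with its own group was lowest for LL34 scrambled replicate 3, at 0.988, and 0.992 or higher for the other arrays. Of the epithelial markers, Nkx2-1, Cdh1, Krt8, Abca3, Sftpc and Sftpb had group means between 9.03 and 11.38, while Epcam, Krt18, Sftpa1 and Sftpd lay at or below 6.83, under the median of 7.11 for named genes. A bulk array cannot tell fewer cells of a type from less RNA per cell.

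In cells given the NANCI shRNA, 13 of the 33 genes rose and 4 fell at an adjusted p under 0.05, and 16 were not called. Glucose uptake and glycolysis supplied 8 of the genes that rose: Slc2a1, Tpi1, Pgam1, Ldha, Pfkl, Pfkm, Pgk1 and Hk2. The 5 others were Egln1, Pfkfb4, Kdm3a, P4ha1 and Higd1a, and the genes that fell were Ndrg1, Eno2, Hif1a and Car9. Among all named genes 13.2% were called higher and 13.6% lower, and among those at or above the median level, where all of the 33 but Slc2a3, Ldhb, Car9 and Car12 belong, 24.2% and 24.7%. The median change of the 33 genes was 0.06 against 0.00 for all named genes. All 3 shRNA arrays lay above all 3 scrambled arrays in 14 genes and below them in 10, where 40.5% of named genes had separate groups. That share is over all named genes and was not computed for those at or above the median level.

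Slc2a1 encodes GLUT1, the main basal glucose transporter of the cell surface. Its log2 signal was 10.67, 10.59 and 10.52 in cells given the NANCI shRNA and 9.71, 9.63 and 9.70 in scrambled cells. Each shRNA array was thus well above every scrambled array. The change was 0.91 (SE 0.0613, 95% interval 0.77 to 1.04, limma adjusted p = 2.44e-06), or 188% of the scrambled signal. Another, dimmer Slc2a1 probe set was not called, at 0.17, and the mean of both gave 0.54 (adjusted p = 4.25e-06). Of the other transporters, Slc2a3 (GLUT3, of high affinity for glucose) had a change of -0.03 (95% interval -0.25 to 0.19) and Slc16a3, which exports lactate, one of -0.18 (95% interval -0.42 to 0.07), neither called.

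In upper glycolysis, the steps that spend ATP and cut the sugar into 3-carbon units, 4 of 7 measured genes rose and 0 fell. Tpi1, triose phosphate isomerase, read 12.30, 12.17 and 12.19 with the shRNA and 11.56, 11.49 and 11.56 without it. The groups did not overlap, and the rise was 0.68 (SE 0.0544, adjusted p = 7.48e-06), or 160% of the scrambled signal. The liver and muscle isoforms of phosphofructokinase, the main committed step, rose by 0.43 (Pfkl, SE 0.0848, adjusted p = 0.00356) and 0.40 (Pfkm, SE 0.0831, adjusted p = 0.00473). For both, replicate 1 was the highest of the shRNA arrays, at 10.09 for Pfkl against 9.78 and 9.72. The platelet isoform Pfkp was lower on every shRNA array, at 9.87, 9.76 and 9.81 against 10.03, 10.06 and 9.98, but its change of -0.21 was not called (adjusted p = 0.0569). Hk2, the inducible hexokinase that traps glucose as its phosphate, rose by 0.26 (SE 0.0681, adjusted p = 0.0174). Hk1, the constitutive hexokinase (0.05), and the aldolase Aldoc (-0.06) were not called.

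In lower glycolysis, which yields ATP and ends in pyruvate and lactate, 3 of 7 genes rose and 1 fell. Pgam1, phosphoglycerate mutase, read 11.80, 11.82 and 11.72 with the shRNA and 11.28, 11.06 and 11.30 in scrambled cells. All shRNA arrays were higher, by 0.57 on average (SE 0.0836, adjusted p = 0.000483). Its other probe set gave -0.21 and was not called, and the mean of both gave 0.18 (adjusted p = 0.121), so the Pgam1 call rests on 1 of 2 probe sets. Ldha, the lactate dehydrogenase subunit favoured in glycolytic cells, read 8.92, 8.90 and 8.91 against 8.47, 8.45 and 8.44. These 6 values had little spread within groups, and the rise was 0.46 (SE 0.0798, adjusted p = 0.00162). Pgk1, phosphoglycerate kinase, rose by 0.35 (SE 0.0531, adjusted p = 0.000624), from 12.23, 12.24 and 12.22 to 12.64, 12.54 and 12.56. Eno2, the neuronal form of enolase, fell from 8.20, 8.24 and 8.18 to 7.72, 7.75 and 7.74. That fall was 0.47 (SE 0.0542, adjusted p = 8.53e-05). Of the steps beside it, Pgam1 was called higher on 1 of 2 probe sets and Pkm was not called. Gapdh, the dehydrogenase between Tpi1 and Pgk1 (-0.09), the pyruvate kinase gene Pkm (0.06) and Ldhb, the subunit that favours lactate use (0.14), were not called.

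Among the flux switches, Pfkfb4, a bifunctional enzyme that sets the level of the phosphofructokinase activator fructose 2,6-bisphosphate, rose by 0.40 (SE 0.0712, adjusted p = 0.00192). Its relative Pfkfb3 read lower on all shRNA arrays, at 7.86, 7.79 and 7.83 against 7.97, 8.04 and 8.06, without being called (-0.20, adjusted p = 0.0725). The kinases Pdk1 and Pdk3, which turn off pyruvate dehydrogenase and so keep pyruvate out of mitochondria, had changes of -0.15 and -0.12 and were not called. Thus 1 of the 4 switches was called.

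Hif1a, the gene of the HIF-1 alpha subunit, read 10.44, 10.44 and 10.66 with the NANCI shRNA and 11.05, 10.83 and 10.97 in scrambled cells. Its RNA was thus lower on each shRNA array, with a fall of 0.44 (SE 0.0775, adjusted p = 0.00171), while the RNA says nothing of the protein, whose level is largely set by its breakdown. Egln1, the prolyl hydroxylase that is the main oxygen sensor for HIF-1 alpha and is itself induced by HIF, rose by 0.41 (SE 0.0575, adjusted p = 0.00037). Egln3, a further prolyl hydroxylase, had a change of 0.08 with a wide interval, -0.20 to 0.36, and was not called. A dimmer Hif1a probe set gave -0.11, not called, and the mean of both -0.28 (adjusted p = 0.00632).

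The other hypoxia-induced genes moved in both directions, with 3 of 9 higher and 2 lower. Ndrg1, a stress-responsive gene of the N-myc downstream-regulated family, read 9.35, 9.18 and 9.19 against 9.72, 9.77 and 9.73 in scrambled cells. All shRNA arrays were lower, by 0.50 (SE 0.058, adjusted p = 9.46e-05). A dimmer Ndrg1 probe set gave -0.13, not called, and the mean of both -0.32 (adjusted p = 0.00107). Car9, a membrane carbonic anhydrase that helps set extracellular pH, fell by 0.33 (SE 0.0524, adjusted p = 0.000938) on its brighter probe set, at the low end of signal (6.89 against 7.21). The dimmer Car9 probe set gave -0.05 and was not called (adjusted p = 0.872). With the mean of both Car9 probe sets the change was -0.19 and was not called (adjusted p = 0.0666). P4ha1, a collagen prolyl hydroxylase, rose by 0.30 (SE 0.0583, adjusted p = 0.00346), Kdm3a, a histone H3 lysine demethylase, by 0.38 (SE 0.0722, adjusted p = 0.00291) and Higd1a, a small protein of the mitochondrial inner membrane, by 0.30 (SE 0.0857, adjusted p = 0.0295). Vegfa, the vascular growth factor (-0.15), Bnip3, a mitophagy receptor (-0.09), Car12, another carbonic anhydrase (-0.18), and P4ha2, a related collagen hydroxylase subunit (0.11), were not called. Calls of Hk2 and Higd1a depended on single arrays. Hk2 gave 0.21 (adjusted p = 0.0721) without NANCI shRNA replicate 1 and 0.23 (adjusted p = 0.0644) without NANCI scrambled replicate 2, and had an adjusted p of 0.0506 in a fit of the 6 NANCI arrays alone. Higd1a gave 0.26 (adjusted p = 0.11) and 0.29 (adjusted p = 0.0786) without those same arrays, 0.30 (adjusted p = 0.0759) without NANCI shRNA replicate 3 and 0.27 (adjusted p = 0.0992) without NANCI scrambled replicate 1.

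**Figure D1:**
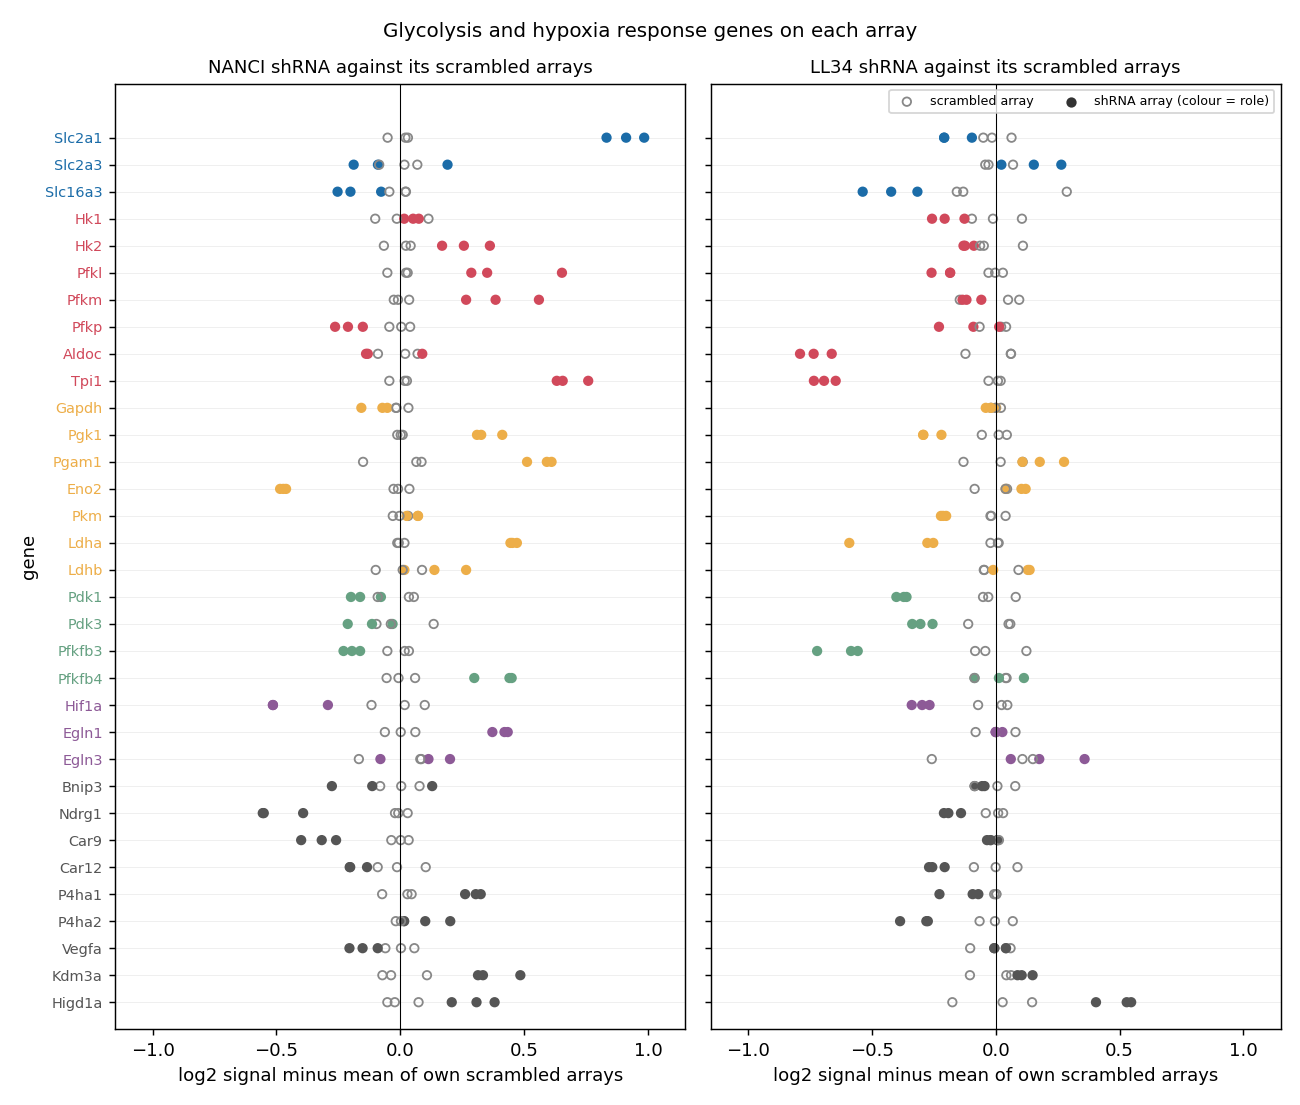
Log2 signal of the 33 measured genes on every array, minus the mean of the 3 scrambled arrays of the same set; open circles are scrambled arrays and filled circles shRNA arrays, coloured by role (blue transport, red upper glycolysis, yellow lower glycolysis, green flux switches, purple oxygen sensing and HIF, grey other hypoxia-induced genes). In the NANCI panel Slc2a1 and Tpi1 lie farthest to the right, with changes of 0.91 and 0.68, and in the LL34 panel Aldoc and Tpi1 lie farthest to the left, at -0.73 and -0.69.

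In cells given the LL34 shRNA, 12 of the 33 genes fell, 1 rose and 20 were not called. The genes that fell were spread over the pathway: Aldoc, Tpi1, Pgk1, Pkm and Ldha of glycolysis, the lactate exporter Slc16a3, the switches Pfkfb3, Pdk1 and Pdk3, and Hif1a, P4ha2 and Car12. Higd1a rose. Of all named genes 9.77% were called higher and 10.3% lower, and 18.5% and 18.5% of those at or above the median level. The median change of the 33 genes was -0.13, against -0.02 for all named genes. All LL34 shRNA arrays lay below all their scrambled arrays in 18 of the 33 genes and above them in 2, where 35.3% of named genes had separate groups. Here too the share is over all named genes and was not computed for those at or above the median level.

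Aldoc, the brain form of aldolase, read 8.12, 8.06 and 8.19 with the LL34 shRNA and 8.92, 8.92 and 8.73 in scrambled cells. The groups were well apart, with a fall of 0.73 (SE 0.0815, adjusted p = 0.00015) to 60.3% of the scrambled signal. Tpi1 read 11.36, 11.41 and 11.32 against 12.07, 12.08 and 12.03. Every shRNA array was lower and the spread within each group was small, so that the fall was 0.69 (SE 0.0544, adjusted p = 1.46e-05), or 61.9% of the scrambled signal. The other 5 upper glycolysis genes, Hk1, Hk2, Pfkl, Pfkm and Pfkp, had changes between -0.21 and -0.10, and none was called.

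In lower glycolysis Ldha read 8.79, 8.77 and 8.45 with the LL34 shRNA and 9.06, 9.05 and 9.02 without it. All shRNA arrays were lower, with replicate 3 the lowest by far, and the fall was 0.37 (SE 0.0798, adjusted p = 0.00818). Pgk1 read 12.30, 12.30 and 12.37 against 12.53, 12.60 and 12.63, and fell by 0.27 (SE 0.0531, adjusted p = 0.00522). Pkm, which makes pyruvate and ATP in the last step, fell by 0.21 (SE 0.0475, adjusted p = 0.0107), from 12.60, 12.60 and 12.66 to 12.40, 12.41 and 12.42. Both genes had separate groups. Gapdh (-0.02), Pgam1 (0.19), Eno2 (0.09) and Ldhb (0.09) were not called. The 95% interval of the Gapdh change ran from -0.13 to 0.09, and its other 2 probe sets gave 0.02 and 0.06.

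Of the flux switches 3 of 4 fell. Pfkfb3, the strongly kinase-active isoform that raises fructose 2,6-bisphosphate, read 7.29, 7.12 and 7.26 with the LL34 shRNA and 7.97, 7.80 and 7.76 in scrambled cells. No shRNA array reached a scrambled one, and the fall was 0.62 (SE 0.0685, adjusted p = 0.000137). Pdk1 fell by 0.38 (SE 0.0617, adjusted p = 0.00164) and Pdk3 by 0.30 (SE 0.0777, adjusted p = 0.0226), and Pfkfb4, at 0.01, was not called. The Pdk1 fall was seen on the brighter of 2 probe sets, and the mean of both gave -0.20 (adjusted p = 0.0218). The dimmer probe set gave -0.01, with group means of 3.88 with the LL34 shRNA and 3.90 in scrambled cells. The lowest means of all named genes in these groups were 3.4 and 3.41, so that probe set could show little of a fall. Slc16a3 read 7.28, 7.50 and 7.39 against 7.66, 7.68 and 8.10. Its scrambled replicate 3 was high, so the fall of 0.43 (SE 0.11, adjusted p = 0.0227) became 0.28 without that array. Slc2a1 was lower on every shRNA array, at 10.53, 10.42 and 10.42 against 10.69, 10.61 and 10.58, but its change of -0.17 was not called (adjusted p = 0.0902).

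Hif1a read 10.91, 10.98 and 10.95 with the LL34 shRNA and 11.30, 11.27 and 11.18 in scrambled cells, a fall of 0.30 (SE 0.0775, adjusted p = 0.0215). The prolyl hydroxylases Egln1 (0.01) and Egln3 (0.20) were not called. Higd1a rose by 0.49 (SE 0.0857, adjusted p = 0.00235), from 8.66, 8.54 and 8.34 to 9.04, 9.06 and 8.92. It was above every scrambled array on each shRNA array, here as with the NANCI shRNA. P4ha2 fell by 0.31 (SE 0.0634, adjusted p = 0.00599) and Car12 by 0.24 (SE 0.0659, adjusted p = 0.0274), while P4ha1 (-0.13), Ndrg1 (-0.18), Kdm3a (0.11), Bnip3 (-0.06), Car9 (-0.02) and Vegfa (0.01) were not called. Some of these falls depended on single arrays. Without LL34 shRNA replicate 1 the changes of Slc16a3 (-0.37), Pdk3 (-0.30), Hif1a (-0.28) and Car12 (-0.23) were not called, nor were they without replicate 3, at -0.43, -0.28, -0.30 and -0.24. In each case 8 genes were called lower. Without LL34 scrambled replicate 1, Pdk3 (-0.27), Hif1a (-0.28) and Car12 (-0.24) were not called, nor Pdk3 (-0.27) and Hif1a (-0.29) without replicate 2, Car12 (-0.20) without replicate 3, or Car12 (-0.26) without LL34 shRNA replicate 2. In a fit of the 6 LL34 arrays alone, Ldha (adjusted p = 0.0662), Slc16a3 (adjusted p = 0.107) and Car12 (adjusted p = 0.0613) were not called, and the mean of both Hif1a probe sets gave -0.12 (adjusted p = 0.245).

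**Figure D2:**
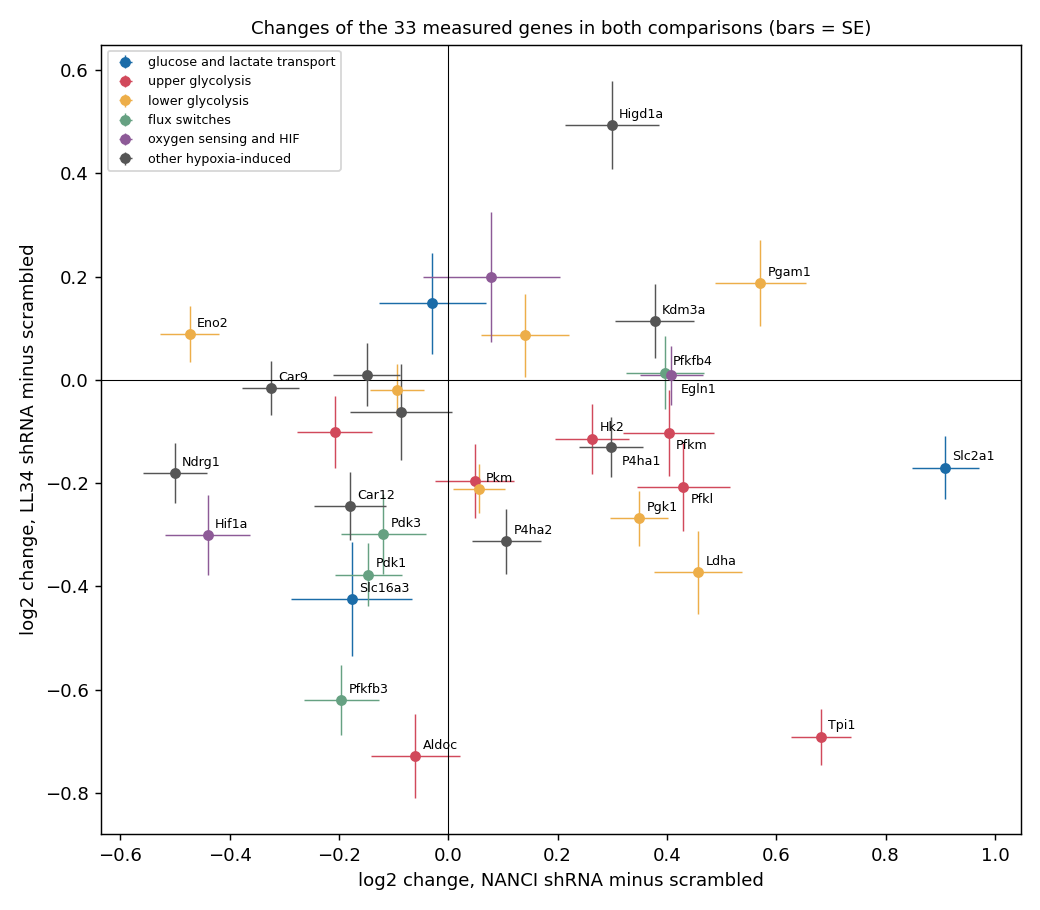
Log2 change of each measured gene with the NANCI shRNA (horizontal) against that with the LL34 shRNA (vertical); points are coloured by role, bars are standard errors of the fit, and genes called in either comparison are named. Tpi1, Ldha and Pgk1 are the named genes of the lower right quadrant that were called in both comparisons, Hif1a at the lower left fell in both, and Higd1a at the upper right rose in both.

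The changes with the 2 shRNAs were compared directly. A test of the NANCI change minus the LL34 change called 15 of the 33 genes higher and 3 lower, where 24.4% of named genes were called in either direction. Each set had its own scrambled arrays, so the 2 changes share no sample. In 3 of the 33 genes, Tpi1, Pgk1 and Ldha, the change was called higher with the NANCI shRNA and lower with the LL34 shRNA. In 0 it was the reverse. Of all named genes, 5.52% were called in opposite directions. The 24.4% and 5.52% are over all named genes. Calls within each comparison were more frequent at or above the median level, where most of the 33 belong. The matching shares at that level were not computed, so no excess is read from these counts. These 3 enzymes catalyse separate steps: Tpi1 turns the second triose into the form used downstream, Pgk1 makes the first ATP, and Ldha makes lactate.

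The difference was largest for Tpi1, at 1.37 (SE 0.0769, 95% interval 1.20 to 1.54, adjusted p = 1.27e-06). Slc2a1 followed at 1.08 (SE 0.0868, adjusted p = 1.05e-05), although its LL34 change alone was not called. With the mean of both Slc2a1 probe sets the difference was 0.64 (adjusted p = 2.4e-05), so its place in this order rests on the brighter one. Ldha had 0.83 (SE 0.113, adjusted p = 0.000364) and Pgk1 0.62 (SE 0.075, adjusted p = 0.000171). Among genes called with the NANCI shRNA alone, the difference was also called for Pfkl (0.64), Pfkm (0.51), P4ha1 (0.43), Egln1 (0.40), Pfkfb4 (0.38), Pgam1 (0.38) and Hk2 (0.38), and on the lower side for Eno2 (-0.56), Ndrg1 (-0.32) and Car9 (-0.31). Among genes called with the LL34 shRNA alone it was called for Aldoc (0.67), Pfkfb3 (0.43), P4ha2 (0.42) and Pkm (0.27).

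Some genes called in 1 comparison alone were not shown to differ between them. Kdm3a rose with the NANCI shRNA, and its difference of 0.26 was not called (adjusted p = 0.107). Pdk1 (0.23, adjusted p = 0.099), Slc16a3 (0.25, adjusted p = 0.358), Pdk3 (0.18, adjusted p = 0.341) and Car12 (0.06, adjusted p = 0.741) fell with the LL34 shRNA alone, again with no call of the difference. Hif1a fell in both, with a difference of -0.14 (95% interval -0.38 to 0.10), and Higd1a rose in both, with a difference of -0.20 (95% interval -0.46 to 0.07). Neither change was called in 8 genes: Slc2a3, Hk1, Pfkp, Gapdh, Ldhb, Egln3, Bnip3 and Vegfa. The difference for Pgam1 was the least firm, at 0.08 (adjusted p = 0.688) with the mean of its probe sets. Leaving out an array ended that call for 9 of the 12 arrays, with values from 0.31 (adjusted p = 0.084) without NANCI scrambled replicate 2 to 0.42 (adjusted p = 0.0536) without NANCI scrambled replicate 1. The exceptions were NANCI scrambled replicate 3, LL34 shRNA replicate 3 and LL34 scrambled replicate 3. The Pfkfb4 difference was not called without NANCI shRNA replicate 1 (0.36) or 2 (0.36), LL34 shRNA replicate 1 (0.33) or LL34 scrambled replicate 2 (0.36), and the Ndrg1 difference was not called without LL34 shRNA replicate 1 (-0.30), with arrays centred on their medians (-0.29, adjusted p = 0.0538) or with the mean of its probe sets (-0.24, adjusted p = 0.0545). The Car9 difference was not called with the mean of its probe sets (-0.25, adjusted p = 0.0841).

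**Figure D3:**
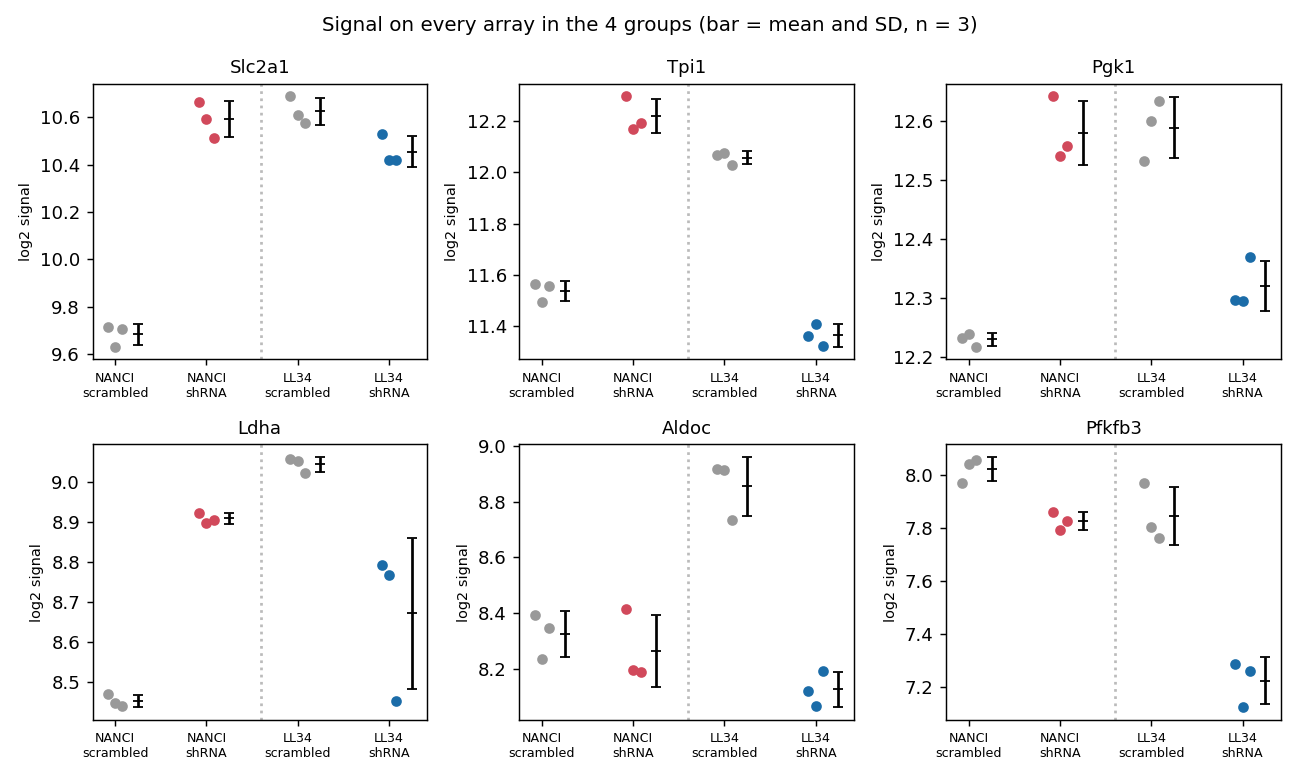
Log2 signal of 6 genes on every array of the 4 groups; points are arrays, and the bar beside them is the mean with its SD (n = 3). The dotted line parts the array sets. Slc2a1, Tpi1, Pgk1 and Ldha were higher with the NANCI shRNA than in its scrambled group, and the LL34 scrambled group stood above the NANCI scrambled group in all 4.

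Levels were also set side by side over the 4 groups. For Slc2a1 the group means were 9.68 in NANCI scrambled, 10.59 in NANCI shRNA, 10.63 in LL34 scrambled and 10.46 in LL34 shRNA cells (SD 0.0448 to 0.0758, n = 3 each). The NANCI scrambled group was thus the low one, and the other 3 lay within 0.17 of each other. Ldha stood at 8.45, 8.91, 9.05 and 8.67 in the same order of groups, and Pgk1 at 12.23, 12.58, 12.59 and 12.32. In both, NANCI shRNA lay near LL34 scrambled, and LL34 shRNA lay between them and NANCI scrambled. Tpi1, at 11.54, 12.22, 12.06 and 11.37, had the NANCI shRNA group highest and the LL34 shRNA group lowest. For Aldoc (8.32, 8.26, 8.85 and 8.13) the LL34 scrambled group stood above the other 3, and for Pfkfb3 (8.02, 7.83, 7.84 and 7.22) the LL34 shRNA group stood below them. Since the sets appear to have been normalized separately, these orders across sets are descriptions with no test.

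The scrambled groups of the sets were described against each other. The LL34 scrambled mean minus the NANCI scrambled mean had a median of 0.15 over the 33 genes, while it was -0.13 over all named genes at or above the median level. Set against that general offset, 24 of the 33 genes were higher in the LL34 scrambled cells, with a median of 0.27 and quartiles of -0.04 and 0.49, where genes at or above the median level had quartiles of -0.22 and 0.23. Slc2a1 (1.07), Pdk1 (0.87), Egln3 (0.79), P4ha1 (0.77) and Ldha (0.72) had the largest excess. In the shRNA groups the same measure had a median of -0.01, and 16 of the 33 genes were above 0. After quantile normalization over all 12 arrays the medians were 0.26 for the scrambled and -0.06 for the shRNA groups. Set, scrambled culture and normalization cannot be told apart here.

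**Figure D4:**
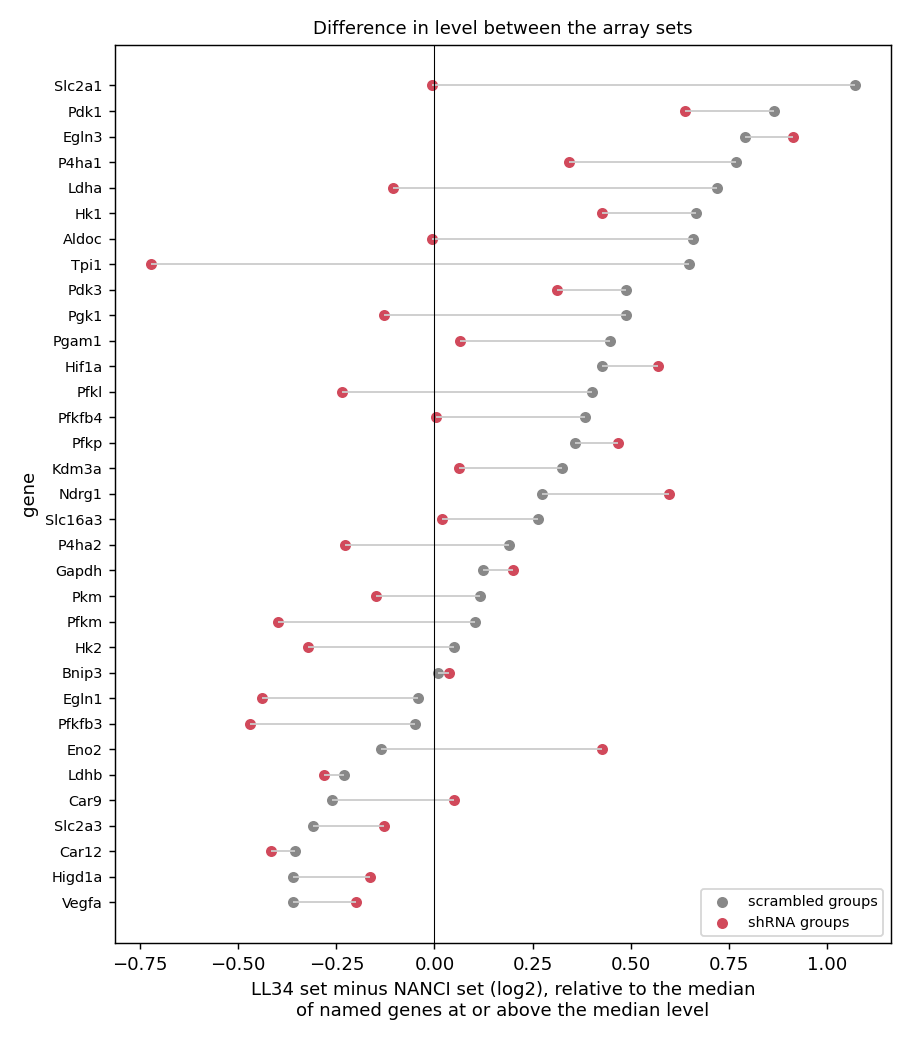
LL34 set minus NANCI set for each measured gene, on the log2 scale and relative to the median over named genes at or above the median level; grey points are the scrambled groups and red points the shRNA groups, and each point is a difference of means of 3 arrays. The scrambled difference is above 0 for 24 of 33 genes and reaches 1.07 for Slc2a1, whose shRNA difference is near 0, at -0.01.

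The calls depended on the choice of scrambled arrays. When all 6 scrambled arrays formed 1 control group, 5 of the 33 genes were called higher with the NANCI shRNA and 4 lower, Pfkp among them in place of Car9, and with the LL34 shRNA 0 were called higher and 4 lower. The Slc2a1 value with the NANCI shRNA was then 0.44 (limma adjusted p = 0.247), that of Tpi1 0.42 (adjusted p = 0.0717), that of Ldha 0.16 (adjusted p = 0.515) and that of Pgk1 0.17 (adjusted p = 0.298). P4ha1 changed sign, to -0.02 (adjusted p = 0.935), and Pfkl (0.29), Pfkfb4 (0.27), Kdm3a (0.28) and Car9 (-0.13) were no longer called. With the LL34 shRNA, Tpi1 (-0.43), Aldoc (-0.46), Slc16a3 (-0.36), Pgk1 (-0.09), Ldha (-0.08), Pdk1 (-0.01), Pdk3 (-0.12), Hif1a (-0.15) and Higd1a (0.25) were not called against the 6 arrays. Pfkfb3, Pkm, P4ha2 and Car12 were still called lower with the LL34 shRNA. This control group joins sets with unlike medians, so its tests cross the sets, and it moved the median change of all named genes to 0.13 for the NANCI and -0.14 for the LL34 comparison. The difference of the 2 changes does not use this joint group. It does hold both scrambled groups, so any gap between them enters it. The LL34 scrambled mean minus the NANCI scrambled mean was 0.94 for Slc2a1, 0.52 for Tpi1, 0.59 for Ldha and 0.36 for Pgk1. The differences of changes were 1.08, 1.37, 0.83 and 0.62 in the same order.

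Other genes of these pathways, from lists that hold none of the 33, gave a mixed picture. Of 31 other measured genes of glycolysis and pyruvate use, 8 rose and 2 fell with the NANCI shRNA, and 3 rose and 4 fell with the LL34 shRNA. Eno3, the muscle enolase, rose by 0.47 (SE 0.118, limma adjusted p = 0.0159) with the former and fell by 1.10 (adjusted p = 0.000116) with the latter. Its rise was not called without NANCI shRNA replicate 1 (0.40) or NANCI scrambled replicate 2 (0.41). Gpd2, the mitochondrial glycerol phosphate dehydrogenase that passes electrons from glycolysis to the respiratory chain, fell by 1.13 (SE 0.0695, adjusted p = 1.38e-06) with the NANCI shRNA and was not called with the LL34 shRNA, at -0.04.

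Of 32 other hypoxia-induced genes, 12 rose and 6 fell with the NANCI shRNA, and 4 rose and 15 fell with the LL34 shRNA. Ddit4, an inhibitor of mTORC1, rose by 1.23 (SE 0.0826, adjusted p = 2.36e-06) and fell by 0.39 (adjusted p = 0.00826), in that order. Gbe1, the glycogen branching enzyme, rose by 0.71 (SE 0.121, adjusted p = 0.00135) and fell by 1.36 (adjusted p = 3.31e-05). Tfrc, the transferrin receptor, rose by 1.42 (SE 0.0924, adjusted p = 1.95e-06) and fell by 0.65 (adjusted p = 0.000651). These 3 genes thus had the same opposed pattern as Tpi1. So did Ak4, Fam162a, Hilpda, Ier3, Mxi1 and Pam of this list, with called changes under 1 in size. Of all 22180 named genes, 581 were called higher with the NANCI shRNA and lower with the LL34 shRNA, and 644 the reverse. The matching counts for genes at or above the median level were not computed, so no excess is read from this list. Plod2, a lysyl hydroxylase for collagen, rose by 1.21 (SE 0.1) with the NANCI shRNA alone, and Cited2, which competes with HIF-1 alpha for a coactivator, fell by 1.38 (SE 0.0798) with the LL34 shRNA alone. The difference was called for both (adjusted p = 0.000131 and 7.43e-06). Edn1, the gene of endothelin-1, fell with both shRNAs; it fell by 1.50 (SE 0.112, adjusted p = 4.84e-06) and fell by 1.45 (adjusted p = 1.22e-05), with a difference of -0.04 (adjusted p = 0.906).

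Among 17 genes for HIF sensing and control, 3 rose and 6 fell with the NANCI shRNA and 5 rose and 2 fell with the LL34 shRNA. Cul2, the cullin of the ligase that marks HIF-1 alpha for breakdown, fell by 1.07 (SE 0.106, adjusted p = 3.11e-05) with the NANCI shRNA and was not called with the LL34 shRNA, at 0.34 (adjusted p = 0.0518). Txnip, which limits glucose uptake, fell by 0.81 (SE 0.0594, adjusted p = 4.25e-06) with the NANCI shRNA and rose by 1.07 (adjusted p = 2.07e-06) with the LL34 shRNA. The Txnip changes thus ran opposite to those of Tpi1, Pgk1 and Ldha in both comparisons. Arnt and Egln2 were also called lower with the NANCI shRNA and higher with the LL34 shRNA, with changes under 1 in size. Eloc, with changes under 1 in size too, was called higher with the NANCI shRNA and lower with the LL34 shRNA. Of 12 genes of the pentose phosphate pathway and gluconeogenesis, 3 rose and 1 fell with the NANCI shRNA, and 1 rose and 2 fell with the LL34 shRNA. Pck2, the mitochondrial phosphoenolpyruvate carboxykinase and a target of ATF4, fell by 1.55 (SE 0.0944, adjusted p = 1.31e-06) and rose by 1.34 (adjusted p = 7.07e-06). Pgd of this list was called higher with the NANCI shRNA and lower with the LL34 shRNA, with changes under 1 in size. Against all 6 scrambled arrays, the changes of Eno3, Gbe1, Tfrc, Txnip and Pck2 were called in neither comparison. Counts in these lists are to be read against the 13.2% and 13.6% of named genes called with the NANCI shRNA and the 9.77% and 10.3% with the LL34 shRNA. The median level of each of these lists was above that of all named genes in every group, and among genes at or above the median level the shares were 24.2% and 24.7% with the NANCI shRNA and 18.5% and 18.5% with the LL34 shRNA.

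**Figure D5:**
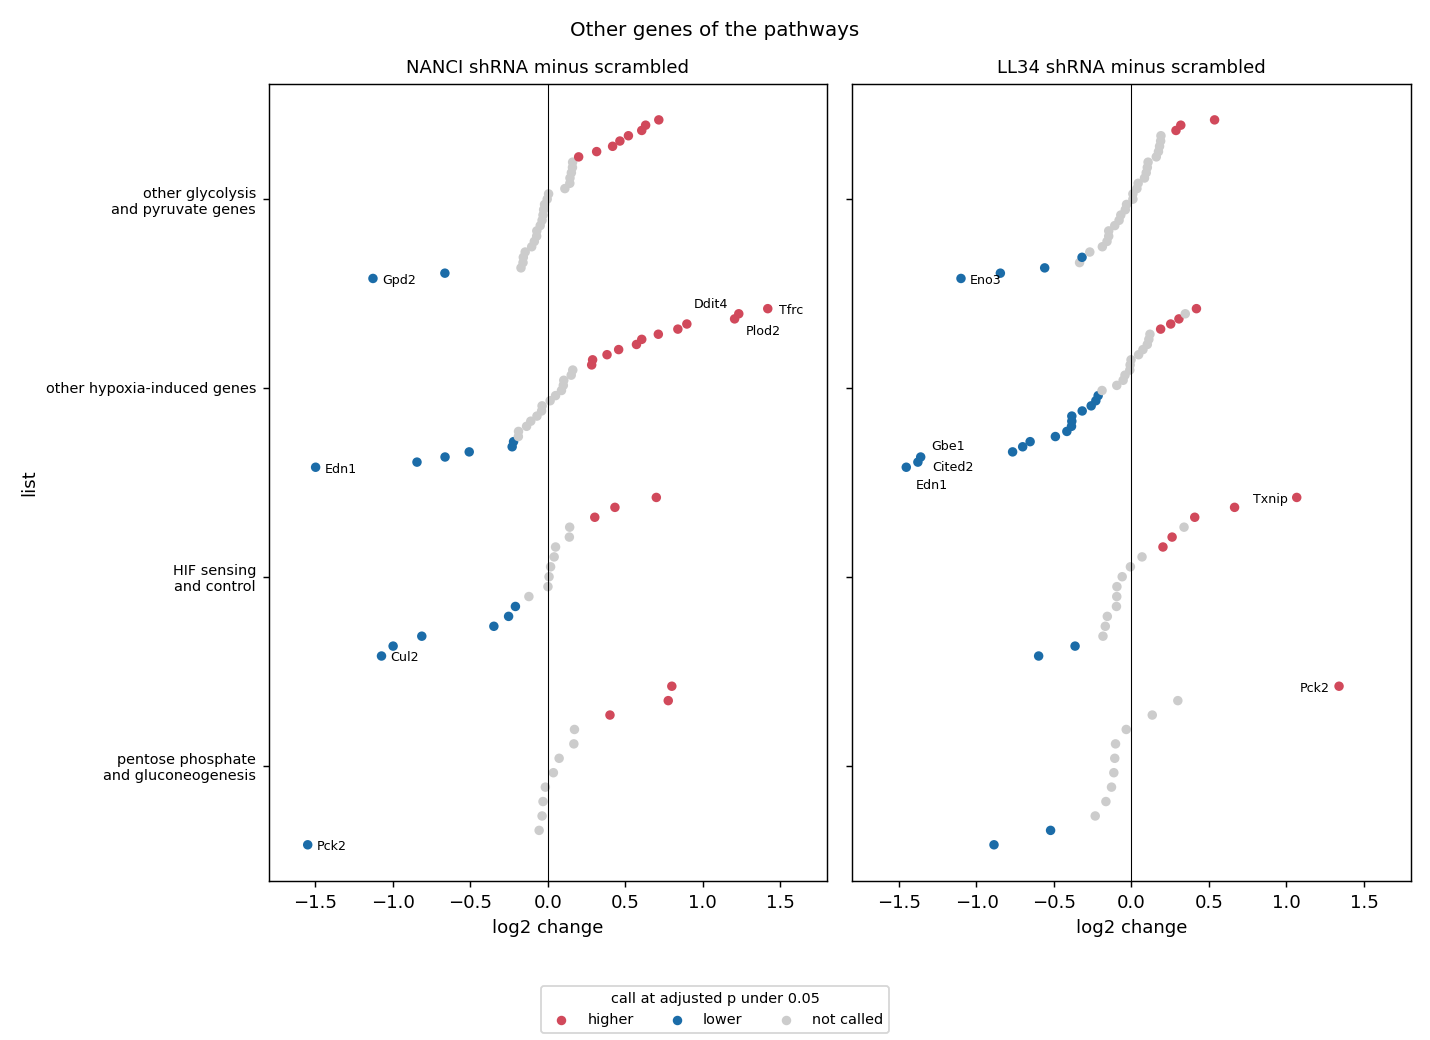
Log2 change of each measured gene of 4 lists of other pathway genes, with the NANCI shRNA (left) and the LL34 shRNA (right), ordered by change within a list; red points were called higher, blue points lower and grey points were not called at an adjusted p of 0.05. Genes with a change of at least 1 in size are named, and Pck2 lies at -1.55 on the left and at 1.34 on the right.

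Markers of other cell types were set beside these results. Of 7 fibroblast genes, Dcn fell by 0.91 (SE 0.0736, adjusted p = 8.05e-06) with the NANCI shRNA and none was called with the LL34 shRNA; the medians of the group means were 6.70 to 7.04, and Dcn itself, at 11.99 to 12.90, was bright in all groups. Of 5 endothelial genes, Tek fell with both shRNAs. It fell by 1.05 (SE 0.18) with the NANCI shRNA and fell by 1.26 with the LL34 shRNA, and the other 4 were not called. Of 4 leukocyte genes, Cd68 rose by 0.88 (SE 0.108) with the NANCI shRNA, from 8.47 to 9.35. The defining leukocyte and endothelial markers Ptprc and Pecam1 had group means of at most 5.46 and 6.69, under the median of named genes. Of 10 distal epithelial genes, 4 fell with the NANCI shRNA (Nkx2-1, Abca3, Cdh1 and Krt8), and with the LL34 shRNA 2 rose and 3 fell. Their part in the glycolysis and hypoxia results was not tested.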

How the data were processed

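RNA of MLE12 cells was measured on 12 Affymetrix arrays, 3 per group. As deposited, each value is a log2 signal of 1 probe set on 1 array. The submitters' processing notes name oligo, RMA and limma, without versions; RMA corrects background, equalizes the arrays' distributions by quantiles and summarizes the probes of a set. The files name no genome build. Array medians differed between the sets of 6, so each set looked separately normalized and the main tests stayed within a set; the alternative with all scrambled arrays as 1 control group crosses them. The values rise with RNA and are not centred per gene. The labels call the replicates biological but leave unsaid whether they were separate infections. The p-values thus reflect only how far these arrays scatter, which may be less than the scatter between separate infections. The number of arrays limits the precision.

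Of 41345 probe sets, 23521 had 1 symbol in the platform's annotation, 1814 several and 16010 none. Near-identical copies and pseudogenes, as for Gapdh and Pgk1, can share probes, which these files cannot resolve. In the LL34 shRNA group, 2 of the 3 arrays had exactly equal values for Slc2a1, Pfkl and Egln1, so their spread may be too small.

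limma 3.58.1 in R 4.3.3 (with the data.table package, version 1.17.8) fitted 4 group means to all 12 arrays, with 8 residual and 2.84 prior degrees of freedom. Benjamini-Hochberg adjustment ran over all probe sets, with a threshold of 0.05 (a gene past it is called). The script was tested on simulated data. The genes and lists were chosen with earlier results of these data known. Every measured gene of the list is named; called genes with a change of at least 0.5 in size, and the few others on which results turn, are given on each array. Genes of the added lists are given with values where called with a change of at least 1. Alternatives were other normalizations, controls, filters, variance models, probe set rules, a replicate block and leaving out each array. Promoters came from a RefSeq table (GRCm38.p6), read with Python 3.11.15 and pandas 2.3.3; Ndrg1 and Slc2a3 had no entry. Figures were drawn with matplotlib 3.10.9.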

Additional observations from a re-analysis of the deposited data

Results flagged for a closer look

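The following genes are listed because the change with the NANCI shRNA and the change with the LL34 shRNA differed in the test of the difference itself (limma, adjusted p under 0.05, both sets with their own 3 scrambled arrays). All values are NANCI change minus LL34 change on the log2 scale. In glucose uptake and glycolysis the differences were 1.08 for Slc2a1, 0.38 for Hk2, 0.64 for Pfkl, 0.51 for Pfkm, 0.67 for Aldoc, 1.37 for Tpi1, 0.62 for Pgk1, 0.38 for Pgam1, 0.27 for Pkm and 0.83 for Ldha, and -0.56 for Eno2. Among switches and oxygen sensors they were 0.43 for Pfkfb3, 0.38 for Pfkfb4 and 0.40 for Egln1. Among other hypoxia-induced genes they were 0.43 for P4ha1 and 0.42 for P4ha2, and -0.32 for Ndrg1 and -0.31 for Car9.

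Of the pathway genes outside the list of 37, the same test gave 1.57 for Eno3, 1.48 for Cited2, 1.62 for Ddit4, 2.07 for Gbe1, 1.22 for Plod2 and 2.07 for Tfrc. It gave -1.09 for Gpd2, -1.41 for Cul2, -1.88 for Txnip and -2.89 for Pck2.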

How the results depend on the processing

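Leaving out each array in turn gave 11 to 13 genes higher and 4 to 5 lower with the NANCI shRNA, and 1 higher and 8 to 14 lower with the LL34 shRNA. Genes lower with the NANCI shRNA numbered 7, against 4, both after quantile normalization over all arrays and with the dimmer probe sets left out; the cause was not tested. All 6 scrambled arrays as 1 control group gave 4309 probe sets called with the LL34 shRNA against 6766, 5 genes higher with the NANCI shRNA against 13, and 0 higher and 4 lower with the LL34 shRNA against 1 and 12. That setting alone turned the sign of called changes: P4ha1 (-0.023) and Eno3 (-0.18) with the NANCI shRNA and Tfrc (0.075) with the LL34 shRNA. It uses other controls, and the LL34 scrambled arrays differ in level from the NANCI scrambled ones; the cause was not tested otherwise. Quantile normalization and centring of arrays moved the share of called named genes that were higher with the LL34 shRNA from 48.8% to 39.6% and 39.5%. Replicate numbers did not pair the samples (correlations of the deviations of arrays with the same number -0.057 to 0.012 for NANCI arrays, -0.125 to 0.045 for LL34 arrays). With a replicate block, 6906, 5257 and 6320 probe sets were called for the NANCI change, the LL34 change and the difference of changes, against 8228, 6766 and 7780, with 13 genes higher and 4 lower, 1 higher and 9 lower, and 14 in the difference. Not called under the block were Pkm, Hif1a and Car12 with the LL34 shRNA (adjusted p = 0.0654, 0.0509 and 0.068) and the differences of Pgam1, Pkm, Pfkfb4 and Ndrg1 (adjusted p = 0.135, 0.0824, 0.0928 and 0.0701).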
